A study of Mus musculus with 4 samples.

Results

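The deubiquitinases of the ubiquitin-specific protease (Usp) family were examined in the DS19 line of mouse erythroleukemia (MEL), an erythroid precursor line immortalized by transformation. Members were the genes whose symbol begins with Usp and a number, apart from the interferon-induced Usp18. The rule found 49 of the 17393 genes in the table and used no measured value. There were 4 RNA libraries, 2 of wild-type cells and 2 of Wdr26-/- cells, numbered 1 and 2 in each genotype. The growth description names 1.5% dimethyl sulfoxide as the agent that drives these cells toward an erythroid-like state, without saying whether the sequenced cells had received it. How the knockout was made, and whether the knockout cells were a single clone, was not stated in the sources used here. The labels do not say whether libraries 1 and 2 were grown as separate cultures, so p-values measure only the spread between these libraries, which may be technical.

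Ubiquitin is joined to proteins by ligases and removed by deubiquitinases, of which the Usp family is the largest. Usp enzymes are cysteine proteases that cut the bond between ubiquitin and its substrate, or between ubiquitins in a chain. They thereby rescue proteins from the proteasome, recycle ubiquitin, reset histone marks and steer membrane traffic. Wdr26 encodes a subunit of the CTLH complex, a ubiquitin ligase that is active while red cell precursors discard their nuclei and much of their proteome. The comparison of knockout with wild type therefore asks, for this family, whether loss of a ligase subunit went with other levels of the mRNAs of the opposing enzymes.

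The shared feature of the family is the catalytic cysteine in a short conserved box near the start of the protease domain. The coding stretches below, of 36 bases each, are shown to let the members that the results turn on be compared, and the capitals mark the cysteine codon (in Usp39, the codon aligned with it). They were read from GENCODE M21 transcripts (GRCm38), 5′ to 3′ on the coding strand.
Usp12: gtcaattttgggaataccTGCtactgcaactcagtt
Usp46: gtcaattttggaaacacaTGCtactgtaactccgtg
Usp1: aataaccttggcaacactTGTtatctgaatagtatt
Usp35: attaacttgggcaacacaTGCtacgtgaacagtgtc
Usp2: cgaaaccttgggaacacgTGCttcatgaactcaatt
Usp39: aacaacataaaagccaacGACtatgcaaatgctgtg
Counted from the start codon, the marked codon is number 48 in Usp12, 44 in Usp46, 90 in Usp1, 450 in Usp35 and 290 in Usp2. A cysteine codon in this box was found in 47 of the 49 members, as TGC in 28 and TGT in 19. In Usp39, a spliceosome protein known to lack protease activity, the codon aligned with it is GAC, number 233, which encodes aspartate. No box was found in Usp6nl, which shares the symbol but encodes a Rab GTPase-activating protein and no deubiquitinase. The members ranged from 366 to 3582 codons.

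As a check of the labels, Wdr26 stood at 55.4 and 52.4 FPKM (fragments scaled to transcript length and library size) in wild-type cells against 9 and 7.84 FPKM in knockout cells (log2 change −2.55, limma adjusted p = 0.0063). All 10 erythroid markers examined were expressed, and their summed FPKM was 168000 and 207000 in wild-type cells against 153000 and 179000 in knockout cells. Most of this sum was Hba-a1, which averaged 152000 FPKM in wild-type cells against 134000 FPKM in knockout cells, so it says little of the other markers. Alas2, Klf1, Epor, Slc4a1 and Tfrc were among the 6 that had both knockout values below both wild-type values, as 10.8% of all genes tested had. The median log2 change of the 10 was −0.31, with a range from −4.18 (Slc4a1) to 0.03 (Gata1). Slc4a1 stood at 436.06 and 284.78 FPKM in wild-type cells against 48.58 and 6.7 FPKM in knockout cells (limma adjusted p = 0.166). Of 11 measured markers of lymphoid, myeloid, stromal, epithelial and endothelial cells 5 were listed at 0 in every library, and apart from Cd68 (1.11 to 2.25 FPKM) none exceeded 0.58 FPKM. Their summed level was 2.07 and 1.83 FPKM in wild-type cells against 2.93 and 3.13 FPKM in knockout cells. Depth, estimated from the smallest steps of the values, was between 25800000 and 27000000 fragments per library. In bulk RNA, fewer cells of a state and less RNA per cell cannot be told apart, and the part of the erythroid difference in the values below was not tested.

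The Usp genes formed a broadly expressed family at moderate levels. Of the 49 members 43 reached 1 FPKM in at least 2 libraries and were tested. Their mean levels ran from 1.09 to 53.3 FPKM, with a median of 13.5 FPKM against 11.6 FPKM over all 10670 genes tested. There were 27 members at 10 FPKM or more and 6 at 30 FPKM or more. Summed over the family, the level was 748 and 711 FPKM in wild-type cells against 737 and 765 FPKM in knockout cells, so that the genotypes overlapped. The 6 members that were not tested were the rodent-specific Usp17 copies Usp17la, Usp17lc, Usp17ld and Usp17le, the atypical Usp50 and the Y-linked Usp9y. None of these exceeded 0.06 FPKM in any library.

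**Figure D1:**
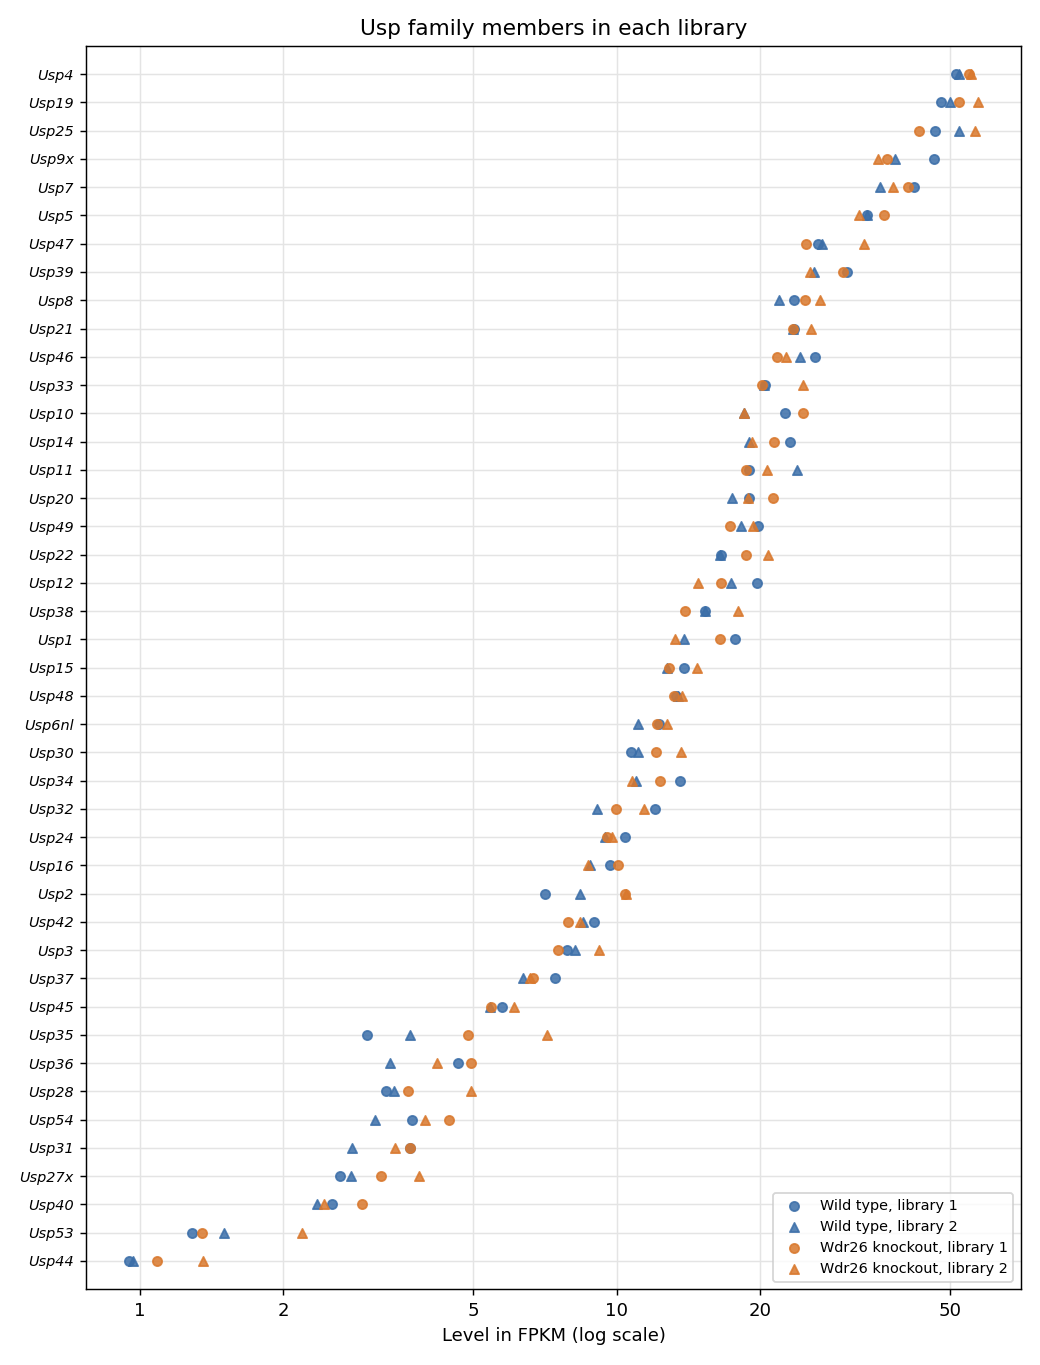
FPKM (log axis) of the 43 tested members in each library, ordered by mean level. Blue marks wild type, orange Wdr26 knockout, circles library 1 and triangles library 2. For most members the 4 points lie close together, and Usp35 has both knockout points to the right of both wild-type points.

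The most abundant members are broad-acting enzymes. Usp4, a DUSP-domain protease known to act in splicing and signalling, averaged 51.8 ± 0.580 FPKM in wild-type cells against 54.9 ± 0.276 FPKM in knockout cells (SD, n = 2, here and below). Usp19, which has an isoform anchored in the endoplasmic reticulum, averaged 48.9 ± 1.39 and 54.7 ± 3.49 FPKM. Usp25, which acts on proteins of endoplasmic-reticulum quality control, averaged 49.4 ± 4.04 and 49.6 ± 9.29 FPKM. In the deposited values Usp4 and Usp19 were higher in both knockout libraries, and Usp25 overlapped between genotypes. With values median-centred or quantile-normalized all 3 overlapped. Usp9x, Usp7 and Usp5 followed at 42.3 ± 5.60, 38.8 ± 4.45 and 33.4 ± 0.0566 FPKM in wild type. At the other end stood Usp44, a histone H2B deubiquitinase of the mitotic checkpoint, at 0.95 and 0.97 FPKM in wild-type cells against 1.09 and 1.36 FPKM in knockout cells, which entered the test only through its knockout libraries.

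No member passed the test between genotypes. With limma on log2(FPKM + 1) and Benjamini-Hochberg adjustment over all genes, 0 of 43 members had an adjusted p under 0.05, where 0.0937% of all genes tested did. At an unadjusted p under 0.05 there were 2 members (4.65%), both higher in knockout, against 11.4% of all genes tested (9.02% higher and 2.4% lower). The lowest adjusted p in the family was 0.317, that of Usp35. The median log2 change of the tested members was 0.05, against 0.067 for all genes tested.

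Changes within the family were small. The SD of the log2 change was 0.16 over the 43 members and 0.29 over all genes tested, or 0.26 over the 3547 genes at levels between the lower and upper quartile of the members. A change of less than 0.25 on the log2 scale was seen in 39 members (90.7%), against 72% of all genes tested, and one of less than 0.5 in 42 members. The difference between the family and other genes was not tested. The 95% interval of a member's log2 change reached between 0.3 and 0.51 to either side, and in 42 of the 43 members it lay within a doubling or halving of FPKM + 1. For members at low levels this allows a larger change in FPKM. Changes smaller than these half-widths could not be resolved with 2 libraries a group.

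Groups did not overlap for 15 members. In 11 (25.6%, against 29.9% of all genes tested) both knockout libraries lay above both wild-type libraries, and in 4 (9.3%, against 10.8%) both lay below. The balance depended on scaling. With values centred on the median gene of each library 6 were higher and 8 lower (19.9% and 20.1% of all genes), and the median log2 change of the family was −0.027. The 6 and 4 of the 8 were also counted without centring. Usp35, Usp2, Usp22, Usp27x and Usp54 on the higher side, and Usp12, Usp46, Usp9x and Usp42 on the lower side, did not overlap without scaling, with median centring and with quantile normalization.

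**Figure D2:**
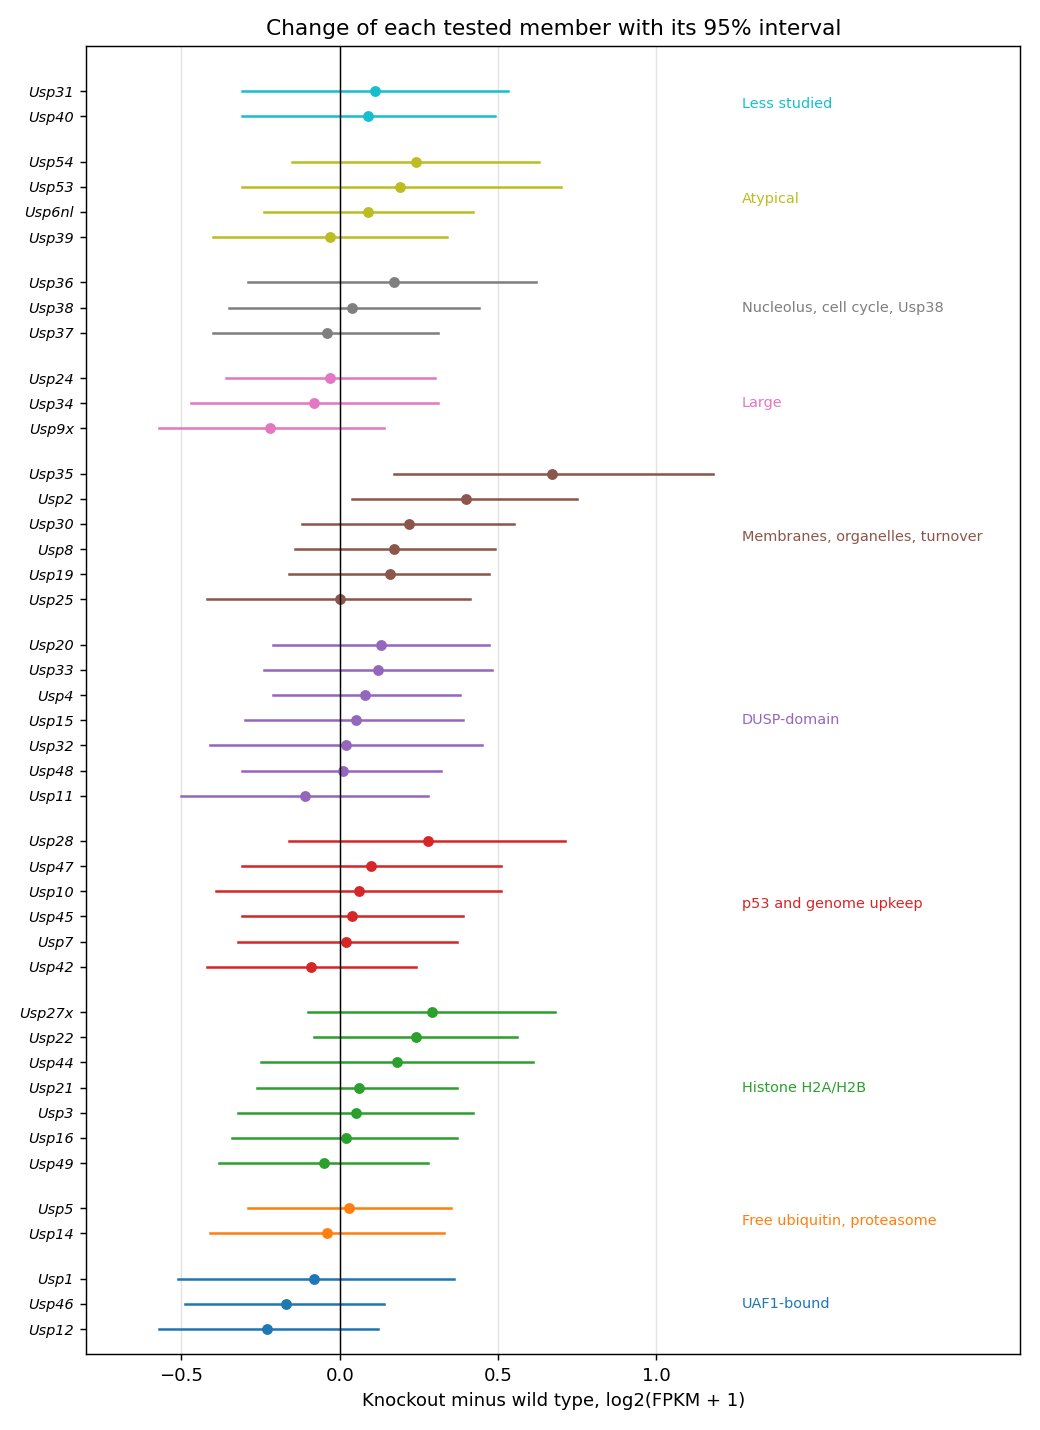
Log2 change, knockout minus wild type on log2(FPKM + 1), of each tested member (point) with its 95% interval from limma (line), grouped by role. The intervals of Usp35 and Usp2 lie above 0 before adjustment, and the other 41 cross 0.

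Without scaling, the members tied to membranes, organelles and protein turnover held both of the members at an unadjusted p under 0.05 in limma. With median centring or quantile normalization Usp35 stayed under that threshold and Usp2 did not. Either scaling still counted 2 members, so another member took the place of Usp2. With quantile normalization it was Usp12, which was lower in knockout and belongs to another group. In 5 of the 6 genes tied to membranes, organelles and protein turnover both knockout libraries were higher than both wild-type libraries without scaling. This compares with 29.9% of all genes tested, and the median log2 change of the 6 was 0.2. After median centring this held for 3 of the 6, against 19.9% of all genes. In 5 of the 6 library 2 was also the higher in both genotypes, against 24% of all genes tested. The role groups were drawn up with earlier results of these data known, so these shares are description only. Usp35, a protease of mitochondria and lipid droplets, stood at 3.0 and 3.69 FPKM in wild-type cells against 4.87 and 7.14 FPKM in knockout cells. Each knockout value exceeded each wild-type value, with knockout library 2 the highest. The knockout mean was 1.8 times the wild-type mean, and the log2 change was 0.67 (SE 0.207, 95% interval 0.17 to 1.18, limma adjusted p = 0.317). It was 0.55 between the libraries numbered 1 and 0.80 between those numbered 2. Without knockout library 1 the log2 change was 0.91 and the limma adjusted p 0.00535, in a fit that assumes that the lone knockout library varies like the wild type. Over all alternatives the adjusted p of Usp35 ran from 0.000186 to 0.978. The gene (gene ID 244144) lies on chromosome 7, 97309403 to 97332308 (mm10), and assembled transcripts are part of its value.

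Usp2, known for stabilizing cyclin D1 and Mdm2 and for circadian expression, stood at 7.07 and 8.36 FPKM in wild-type cells against 10.42 and 10.45 FPKM in knockout cells. The knockout libraries were almost equal and above both wild-type libraries. The ratio of means was 1.35 and the log2 change 0.40 (SE 0.146, 95% interval 0.04 to 0.75, limma adjusted p = 0.395). Over the alternatives its adjusted p ran from 0.0173 to 1.0. It lies on chromosome 9, 44067021 to 44095627 (gene ID 53376).

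The rest of this group differed less. Usp30, which removes ubiquitin at the mitochondrial outer membrane and restrains mitophagy, stood at 10.7 and 11.09 FPKM in wild-type cells against 12.06 and 13.62 FPKM in knockout cells. Usp8, an endosomal enzyme that spares receptors from lysosomal breakdown, stood at 23.56 and 21.83 FPKM against 24.81 and 26.68 FPKM. Usp19 stood at 47.89 and 49.86 FPKM against 52.2 and 57.14 FPKM. These 3 were higher in both knockout libraries without scaling, but Usp19 and Usp30 overlapped with median-centred values, and all 3 with quantile-normalized values. Usp25 stood at 46.53 and 52.24 FPKM against 43.06 and 56.20 FPKM, with the wild-type values inside the knockout range (ratio of means 1.0, 95% interval 0.75 to 1.33 on the fold scale of FPKM + 1).

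Usp1, Usp12 and Usp46 form the branch that is activated by the WD40-repeat protein UAF1, encoded by Wdr48. Usp1 acts on Fancd2 and Pcna in DNA repair, while Usp12 and Usp46 are close paralogs that use the further WD40 protein Wdr20. Both paralogs were lower in both knockout libraries, as 10.8% of all genes tested were, and Usp1 overlapped. None of the 3 passed the test.

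Usp12 (gene ID 22217, chromosome 5, 146734809 to 146794956) stood at 19.68 and 17.33 FPKM in wild-type cells against 16.53 and 14.8 FPKM in knockout cells. The knockout mean was 0.847 of the wild-type mean, with a log2 change of −0.23 (95% interval −0.57 to 0.12, limma adjusted p = 0.641). Usp46 (gene ID 69727, chromosome 5, 73998726 to 74068411) stood at 26.05 and 24.19 FPKM against 21.65 and 22.64 FPKM. Its ratio was 0.882 and its log2 change −0.17 (95% interval −0.49 to 0.14, limma adjusted p = 0.711). Between same-numbered libraries the log2 differences were −0.24 and −0.21 for Usp12 and −0.26 and −0.09 for Usp46. Since the groups did not overlap, these are negative however the libraries are paired, and their sign adds nothing. The coding sequences of the pair are identical at 77.2% of aligned bases and share no run longer than 20 bases. Usp1 stood at 17.68 and 13.8 FPKM against 16.42 and 13.25 FPKM (log2 change −0.08, limma adjusted p = 0.926), and its library 2 was the lower in both genotypes. The shared partners overlapped between genotypes. Wdr48 averaged 18.1 ± 0.891 FPKM in wild-type cells against 17.6 ± 2.28 FPKM in knockout cells, and Wdr20 13.1 ± 0.863 and 13.2 ± 0.658 FPKM.

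The stretches upstream of the starts of Usp12 and Usp46 are shown because each was lower in both knockout libraries, though neither passed the test. That of Usp2 stands beside them for a member that was higher in both and did not pass either. They come from RefSeq promoters (GRCm38.p6), cut back to bases that no GENCODE M21 exon covers, 5′ to 3′ on the strand of the gene. Capitals mark the GC box GGGCGG or its complement CCGCCC.
Usp12, minus strand, chr5:146795007-146795206: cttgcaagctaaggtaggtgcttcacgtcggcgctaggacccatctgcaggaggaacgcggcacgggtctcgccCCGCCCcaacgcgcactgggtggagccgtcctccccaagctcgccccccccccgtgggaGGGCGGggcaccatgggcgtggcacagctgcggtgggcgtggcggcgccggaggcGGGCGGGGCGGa
Usp46, minus strand, chr5:74068432-74068661: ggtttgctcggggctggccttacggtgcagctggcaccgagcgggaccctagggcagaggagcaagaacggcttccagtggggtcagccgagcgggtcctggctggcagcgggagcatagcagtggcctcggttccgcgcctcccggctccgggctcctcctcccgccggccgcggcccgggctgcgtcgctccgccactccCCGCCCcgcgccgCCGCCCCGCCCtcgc
Usp2, plus strand, chr9:44084670-44084919: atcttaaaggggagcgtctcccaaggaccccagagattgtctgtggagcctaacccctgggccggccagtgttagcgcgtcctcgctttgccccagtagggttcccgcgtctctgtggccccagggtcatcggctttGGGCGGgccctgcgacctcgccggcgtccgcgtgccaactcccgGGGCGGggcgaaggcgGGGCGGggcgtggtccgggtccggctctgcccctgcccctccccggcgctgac
The Usp2 stretch precedes an internal start of that gene. The 3 stretches hold 4, 3 and 3 GC boxes and are 74.5%, 76.5% and 71.6% G or C, with no CCAAT and no AGATAA or TGATAA on either strand. Of the 43 tested members 33 had a RefSeq promoter entry. In the 250 bases before the start, 72.7% of these held a GC box on either strand, against 62.2% of the 8293 tested genes with an entry and 32.9% of all 27025 promoters. CCAAT was found in 5 of the 33 (15.2%, against 37.8% and 34.5%), and the GATA sequences AGATAA or TGATAA in 0 of the 33 (against 8.7% and 17%). The median G or C content was 65.6% in members and 60.4% in tested genes. A match is a description of the letters, and these shares were not tested.

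Among the deubiquitinases of histones H2A and H2B, 3 of the 7 tested had both knockout values higher (29.9% of all genes tested did) and 0 had both lower (10.8%). One of the 3, Usp44, was tested only because of its knockout values, so its direction was favoured by the filter, which leaves 2 of 6 without it. Usp22, the enzyme of the SAGA coactivator, stood at 16.53 and 16.47 FPKM in wild-type cells against 18.61 and 20.78 FPKM in knockout cells. The wild-type libraries were nearly equal, and both knockout libraries lay above them (log2 change 0.24, 95% interval −0.08 to 0.56, limma adjusted p = 0.589). Its X-linked paralog Usp27x, which can join the same module, stood at 2.63 and 2.77 FPKM against 3.21 and 3.86 FPKM, again without overlap (log2 change 0.29, 95% interval −0.10 to 0.68, limma adjusted p = 0.589). The third, Usp44, is given above and overlapped once values were median-centred or quantile-normalized. The coding sequences of Usp22 and Usp27x are identical at 77.5% of aligned bases, with a longest shared run of 32 bases.

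Among the other subunits of the SAGA module that were measured (Atxn7, Atxn7l1, Atxn7l2, Atxn7l3 and Eny2) none was higher in both knockout libraries. Over all genes tested the share was 29.9%, and this list is too short to be told apart from it. The adaptor gene Atxn7l3 averaged 30.3 ± 0.403 FPKM in wild-type cells against 26 ± 3.49 FPKM in knockout cells. Both of its knockout values lay below both wild-type values, as in 10.8% of all genes tested. Eny2 averaged 19.1 ± 1.57 and 18.9 ± 1.97 FPKM, and Atxn7 4.67 ± 0.247 and 4.70 ± 0.502 FPKM. Of the other histone deubiquitinases, Usp21 stood at 23.48 and 23.36 FPKM in wild-type cells against 23.36 and 25.52 FPKM in knockout cells, and Usp49 at 19.78 and 18.17 FPKM and at 17.29 and 19.27 FPKM. Both overlapped between genotypes, but Usp49 was lower in both knockout libraries after either scaling (log2 change −0.13 with median centring). A longer gene model on the same strand covers 51.2% of the exon bases of Usp49, so its value is uncertain. Usp16, which acts on H2A in mitosis, and Usp3 lay at 8.70 to 10.05 and 7.54 to 9.19 FPKM and overlapped.

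**Figure D3:**
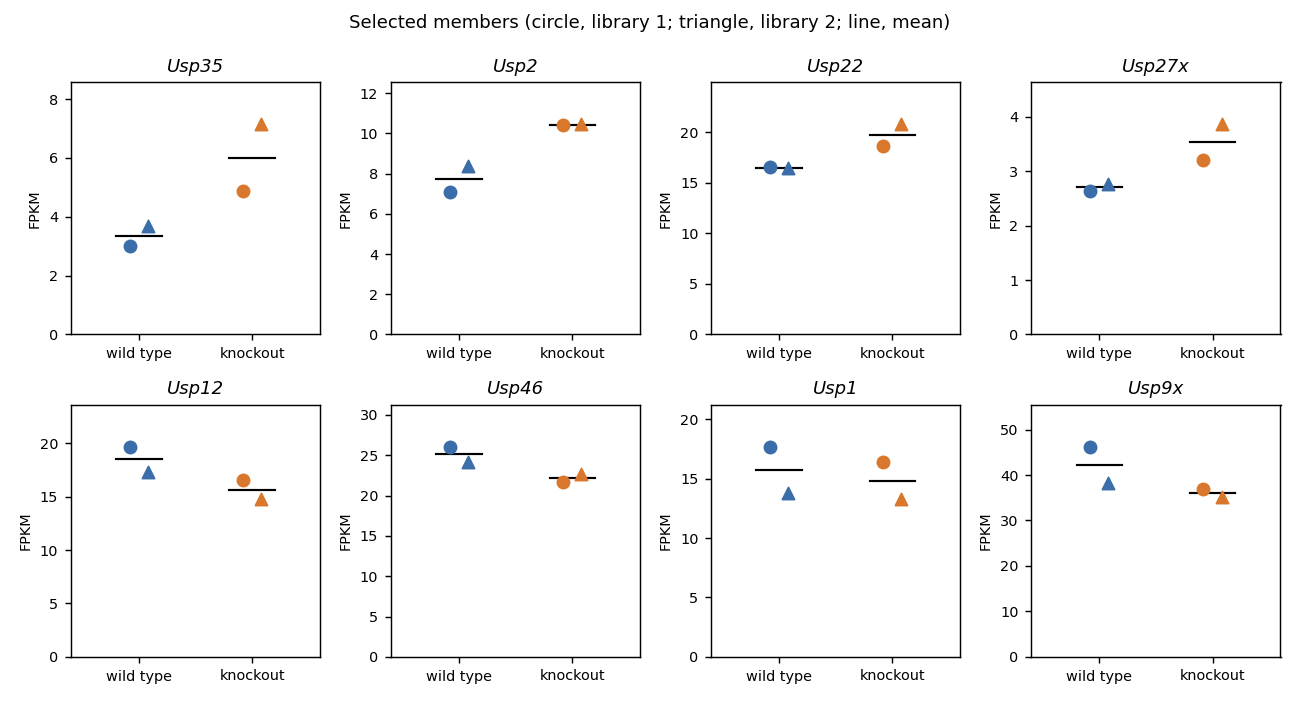
FPKM of 8 members in each library, each panel with its own axis from 0. Circles are library 1, triangles library 2 and lines the mean of 2 libraries. Usp35, Usp2, Usp22 and Usp27x have both knockout points above the wild-type points, Usp12, Usp46 and Usp9x both below, and Usp1 overlaps.

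The members that act on free ubiquitin and at the proteasome overlapped between genotypes. Usp5, which takes apart unanchored ubiquitin chains, stood at 33.37 and 33.45 FPKM in wild-type cells against 36.24 and 32.11 FPKM in knockout cells (ratio of means 1.02, 95% interval 0.816 to 1.28 on the scale of FPKM + 1). Usp14, which trims chains on the proteasome, stood at 23.01 and 18.9 FPKM against 21.37 and 19.2 FPKM (ratio 0.968, interval 0.751 to 1.26). The convergent gene Thoc1 covers 26% of the exon bases of Usp14, so some reads may belong to either gene. The proteasome subunit gene Psmd1, from the list of partners, averaged 61.7 ± 6.74 FPKM in wild-type cells against 52.1 ± 4.42 FPKM in knockout cells (limma adjusted p = 0.631). Without scaling Psmd1 was lower in both knockout libraries, as 10.8% of all genes tested were.

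Of the 6 enzymes that act on the p53 pathway and on genome upkeep 4 overlapped as well, as 6326 of all 10670 genes tested did. The median log2 change of the 6 was 0.05. Usp7, which stabilizes both Mdm2 and p53, stood at 41.98 and 35.68 FPKM in wild-type cells against 40.68 and 37.98 FPKM in knockout cells (ratio 1.01, 95% interval 0.799 to 1.29 on the scale of FPKM + 1). Its relative Usp47, known from base excision repair, stood at 26.41 and 26.97 FPKM against 24.86 and 33.02 FPKM, with the wild type inside the knockout range. Usp28, the paralog of Usp25 known for stabilizing Myc, stood at 3.29 and 3.42 FPKM against 3.66 and 4.96 FPKM, higher in both knockout libraries without scaling and overlapping with median-centred or quantile-normalized values. Usp42 was the 1 member of the group that was lower in both, at 8.97 and 8.50 FPKM and at 7.90 and 8.38 FPKM. Usp10, which stabilizes p53 in the cytoplasm, and Usp45 overlapped, at 18.44 to 24.59 and 5.42 to 6.10 FPKM. Of their partners, Trp53 averaged 225 ± 1.32 FPKM in wild-type cells against 261 ± 18.1 FPKM in knockout cells, and Mdm2 28.1 ± 2.33 and 25 ± 5.08 FPKM. Without scaling Trp53 was higher in both knockout libraries, as 29.9% of all genes tested were, and Mdm2 overlapped. Neither passed the test (limma adjusted p = 0.644 and 0.802).

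In the DUSP-domain branch 6 of 7 genes overlapped between genotypes, as 6326 of all 10670 genes tested did. Usp4 stood at 51.35 and 52.17 FPKM in wild-type cells against 54.73 and 55.12 FPKM in knockout cells, a ratio of 1.06 that was above both wild-type libraries without scaling but overlapped with median-centred or quantile-normalized values. Usp33, which acts on receptors and at centrosomes, stood at 20.43 and 20.32 FPKM against 20.11 and 24.53 FPKM. The gene model Gm43857 on the opposite strand covers 15.3% of the exon bases of Usp33. The Usp33 paralog Usp20 ranged from 17.46 to 21.24 FPKM. The paralogs of Usp4, Usp15 and the X-linked Usp11, ranged from 12.73 to 14.72 and from 18.66 to 23.8 FPKM. Usp32 and Usp48 ranged from 9.11 to 12.05 and from 13.15 to 13.71 FPKM.

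Of the very large enzymes, the X-linked Usp9x was lower in both knockout libraries. Usp9x, which stabilizes Mcl1 and acts on cell polarity and growth factor signalling, stood at 46.22 and 38.3 FPKM in wild-type cells against 36.9 and 35.25 FPKM in knockout cells. The gap was wider between the libraries numbered 1 (log2 difference −0.32) than between those numbered 2 (−0.12), and the change of −0.22 did not pass (95% interval −0.57 to 0.14, limma adjusted p = 0.664). Usp34 stood at 13.55 and 10.98 FPKM against 12.34 and 10.75 FPKM, and Usp24 at 10.38 and 9.46 FPKM and at 9.54 and 9.78 FPKM. Both overlapped without scaling, and both were lower in both knockout libraries with median-centred values (log2 change −0.15 and −0.11) and with quantile-normalized ones. The neighbour Ahsa2 on the opposite strand covers 11.6% of the exon bases of Usp34.

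The remaining members overlapped between genotypes without scaling, apart from Usp54, which was higher in both knockout libraries. Usp38, the paralog of Usp35, stood at 15.34 and 15.29 FPKM in wild-type cells against 13.88 and 17.99 FPKM in knockout cells, around the wild-type values. The gene model Gm9725 on the opposite strand covers 20.5% of the exon bases of Usp38. Usp37, which acts on cyclin A at the entry to S phase, stood at 7.41 and 6.35 FPKM against 6.69 and 6.58 FPKM, overlapping without scaling and lower in both knockout libraries after median centring (log2 change −0.12) or quantile normalization. Usp36, an enzyme of the nucleolus, stood at 4.65 and 3.35 FPKM against 4.95 and 4.21 FPKM. The spliceosome protein gene Usp39 stood at 30.3 and 25.86 FPKM against 29.73 and 25.37 FPKM, nearly the same in both genotypes for each library number. Usp6nl stood at 12.25 and 11.09 FPKM against 12.15 and 12.72 FPKM. Of the paralogs Usp53 and Usp54, which were long held to be inactive, Usp53 stood at 1.29 and 1.5 FPKM against 1.35 and 2.19 FPKM, and Usp54 at 3.73 and 3.11 FPKM and at 4.45 and 3.96 FPKM. The less studied Usp31 and Usp40 ranged from 2.79 to 3.68 and from 2.35 to 2.92 FPKM.

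Many members differed between libraries 1 and 2 of a genotype as much as between genotypes. For 24 of the 43 members the mean difference between libraries 2 and 1 was larger than that between genotypes, as it was for 5616 of all 10670 genes tested. In both genotypes 15 members (34.9%, against 46.5% of all genes tested) were lower in library 2 and 14 (32.6%, against 24%) higher. Usp1, Usp10, Usp36, Usp14 and Usp39 were among those lower in library 2. The log2 difference was −0.34 in wild type and −0.29 in knockout for Usp1, and −0.27 and −0.39 for Usp10. Usp35, Usp25, Usp11 and Usp53 were among those higher in library 2, with 0.23 and 0.47 for Usp35 and 0.16 and 0.38 for Usp25. The 2 differences had a Pearson correlation of 0.67 across the 43 members, which share the same 4 libraries, and 0.61 across all genes tested. Of 24 DNA replication genes 23 were lower in library 2 in both genotypes, with summed levels of 659 and 425 FPKM in wild-type libraries 1 and 2 and 642 and 361 FPKM in those of knockout. The part of this difference in the values of Usp1 and the others was not tested.

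**Figure D4:**
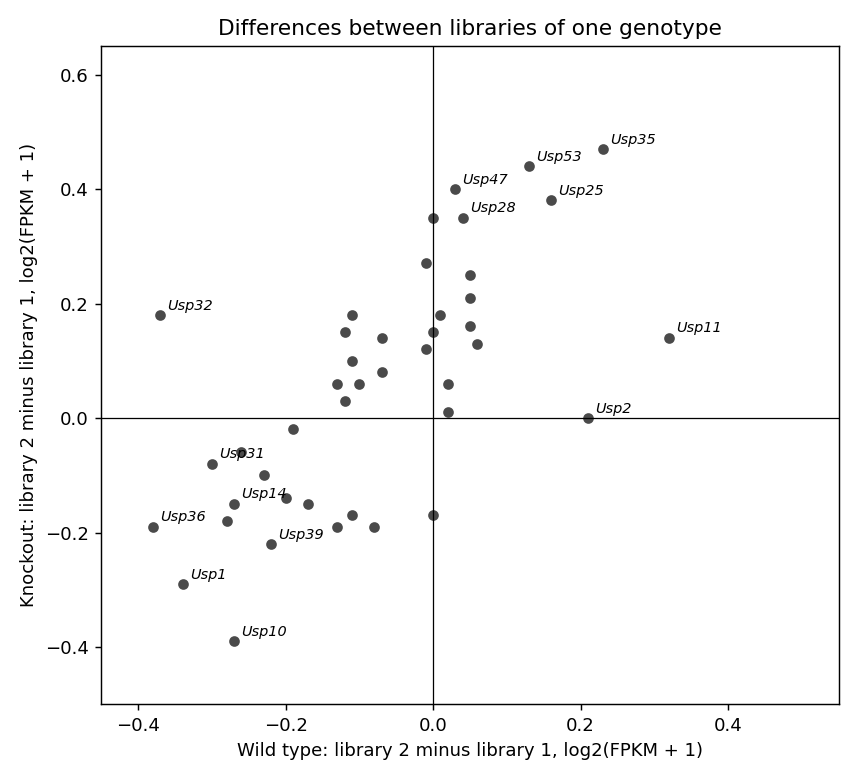
Difference between library 2 and library 1 on log2(FPKM + 1) in wild type (horizontal axis) and in knockout (vertical axis) for the 43 tested members (points, some named). Most points lie in the lower left and upper right corners, where 15 and 14 members differ the same way in both genotypes.

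Deubiquitinases outside the family, the partners of Usp enzymes and the ubiquitin genes held no gene that passed either in the fit without a block. Of 34 tested deubiquitinases and relatives of other families 0 passed in limma, and 2 (5.88%, against 11.4% of all genes tested) had an unadjusted p under 0.05, both higher in knockout. Otub2, an OTU-family enzyme, stood at 12.78 and 10.79 FPKM in wild-type cells against 16.28 and 17.97 FPKM in knockout cells (log2 change 0.51, limma adjusted p = 0.305). Fam63a (also known as Mindy1), which trims long ubiquitin chains, stood at 37.53 and 36.35 FPKM against 45.69 and 49.11 FPKM (log2 change 0.35, limma adjusted p = 0.387). The most abundant of this list were the translation factor subunits Eif3f and Eif3h, at 361 ± 81.2 and 363 ± 51.9 FPKM in wild-type cells against 407 ± 69.9 and 401 ± 30.7 FPKM in knockout cells. Both overlapped between genotypes. In the list 8 genes had both knockout values higher (23.5%, against 29.9% of all genes tested) and 5 had both lower (14.7%, against 10.8%), with a median log2 change of 0.0.

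Of 21 tested partners and substrates 0 passed and 0 had an unadjusted p under 0.05 in limma. In 1 gene both knockout values were higher (4.76%, against 29.9% of all genes tested) and in 3 both were lower (14.3%, against 10.8%), and the median log2 change was −0.04. Trp53 and Ywhae, a 14-3-3 protein that binds Usp8, were the most abundant, with Ywhae at 198 ± 10.8 FPKM in wild-type cells against 190 ± 27.5 FPKM in knockout cells. Among the 6 genes that supply and activate ubiquitin, 3 had both knockout values higher (50%, against 29.9% of all genes tested) and 1 had both lower (16.7%, against 10.8%), and 0 passed in limma, adjusted or not.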

How the data were processed

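RNA of 4 MEL cell samples was depleted of ribosomal RNA and sequenced, per the labels' protocols. The authors deposited 1 table of values per gene and library whose header names no unit. The deposited values were identified as FPKM from the numbers, since multiplied by transcript length they summed to between 1.02e+09 and 1.04e+09 in each library. TopHat2 and mm10 are named in the submitters' processing notes, while the quantification program was not given in the sources used here. Whether the libraries kept strand was not stated either, so members with exons shared with a neighbour are uncertain. Transcripts assembled from the reads are part of the values of 22 members. An exact 0 may stand for an estimate that failed.

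Genes that reached 1 FPKM in 2 or more libraries went into limma 3.58.1 under R 4.3.3 (mean-variance trend, no covariates) on log2(FPKM + 1), which understates the change of low genes, with Benjamini-Hochberg adjustment over 10670 genes and a threshold of 0.05. Ratios of means are of FPKM, and intervals are limma's at 95%. An exact permutation test of 2 libraries against 2 cannot give a p below 0.333 and was not run. The procedure was tested on simulated data. Depth was estimated from values worth 1 fragment in short genes, assuming 200 bases of lost effective length, and is approximate. Coding sequences were compared with Biopython 1.88.

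The members and lists were chosen with earlier results of these data known. Values in each library are given for members at an unadjusted p under 0.05, the UAF1-bound members and the 2 most abundant tested members of each role, and in the other lists for genes at an unadjusted p under 0.05 and the 2 most abundant, except that some genes of the ubiquitin supply list are not reported here. Usp22, Usp27x, Usp28, Usp30, Usp8, Usp42, Usp24, Usp36, Usp53, Usp54 and Usp44, and the partners Wdr48, Wdr20, Atxn7l3, Eny2, Atxn7, Atxn7l1, Atxn7l2, Psmd1, Pcna and Mdm2 and the deubiquitinase relative Pan2, were named after their values were seen. The alternatives were median centring, quantile normalization, no filter, a mean of at least 5 FPKM, 0.1 as the pseudocount, no trend, blocking on library number with and without centring, and leaving out each library. Leaving out Usp6nl was chosen after seeing the data.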

Additional observations from a re-analysis of the deposited data

How the results depend on the processing

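Over all genes 10 passed the test. That number was 0 without the filter on low genes, 2 where a mean of 5 FPKM was required, and between 0 and 720 with 1 library left out (0 without either wild-type library, 720 without knockout library 1, 314 without knockout library 2). Of the members 0 passed, and 0 to 1 with 1 library left out, the 1 being Usp35 without knockout library 1. The 2 members at an unadjusted p under 0.05 became 1 where a mean of 5 FPKM was required and Usp35 is not tested, and 0 to 1 with 1 library left out. The family's median log2 change of 0.05 became −0.027 with median-centred and −0.042 with quantile-normalized values, and ran from 0.031 to 0.095 with 1 library left out. The 11 members higher in both knockout libraries became 6 with median-centred values, 5 with quantile normalization and 6 where a mean of 5 FPKM was required. They became 13 without the filter and 12 to 24 with 1 library left out. The 4 lower in both became 8 with either scaling and 5 to 13 with 1 library left out, where fewer libraries make groups overlap less often. For the other shifts the cause was not tested.

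With the library number as a replicate block 1863 genes passed (17.5%), and 1391 with the block and median-centred values. Of the members 2 passed with the block (Usp35, adjusted p = 0.000186, and Usp2, adjusted p = 0.0173) and 1 with the block and centring (Usp35, adjusted p = 0.00363). In the other lists the block alone gave limma adjusted p = 0.00111 for Otub2, 0.0125 for Fam63a and 0.0439 for Pan2 among other deubiquitinases, and 0.0153 for Pcna among partners. At an unadjusted p under 0.05 there were 6 and 5 members, against 28.8% and 26.9% of all genes. With the block and centring the median was −0.027, with 6 members higher and 8 lower in both knockout libraries. The labels do not say that a number marks a shared batch, and with 2 pairs the correlation of 0.61 between same-numbered deviations over all genes does not establish pairing. Of 273 member values under alternatives, 234 kept their direction and side of the threshold, 4 passed (those of Usp35 and Usp2 named here) and 35 of 16 members changed sign without passing.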
